A study of Rattus norvegicus with 9 samples.

Results

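The genes of MHC class II antigen presentation were followed in rat right ventricle. The 8 genes taken were Cd74, Ciita, RT1-Ba, RT1-Bb, RT1-Da, RT1-Db1, RT1-DMa and RT1-DMb, and features of the array that carry exactly 1 of these symbols were looked up. All 8 genes were found, each on 1 feature, among 29215 features in all, of which 15310 carry 1 symbol. The ventricles were frozen tissue of male SD rats, an outbred stock. One group had been sham-operated, and the other 2 had pulmonary artery banding (PAB), a narrowing of the vessel that puts a pressure load on this chamber. By the study's methods, banded hearts were sorted 4 weeks after the operation by their fibrotic area into those without fibrosis, labelled PAB_F(-) and called F- below, and those with fibrosis, labelled PAB_F(+) and called F+. No age is given for these rats in the sources used here. Each group was measured on 3 Affymetrix Rat Gene 1.0 ST arrays, 9 in all.

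MHC class II molecules are the pairs of an alpha and a beta chain that carry peptides from swallowed proteins to the surface of a cell, where CD4+ T cells read them. In the rat their genes lie in the RT1 complex. The invariant chain Cd74 escorts new class II pairs to endosomes, proteases cut it down there, and the DM pair exchanges the remaining fragment for a peptide. Ciita, the class II transactivator, switches these genes on together, either constantly in dendritic cells and B cells or after interferon gamma in macrophages and many other cells. In the heart, class II is best known from resident macrophages and dendritic cells.

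The regulator Ciita does not bind DNA itself but docks on proteins that occupy 2 short boxes, X and Y, upstream of class II genes. The RefSeq promoters of the assembly GRCr8 (250 bases before and 50 after the start of each gene) held 6 of the 8 genes, and Ciita and RT1-DMb had no entry. The stretches below are shown for the layout that 5 of these 6 promoters share. Capitals mark GNNACNG, letters for the X box that were chosen after looking at these sequences, and ATTGG, the Y box, which is CCAAT read on the other strand.
RT1-Da, chr20:4515327-4515376, plus strand: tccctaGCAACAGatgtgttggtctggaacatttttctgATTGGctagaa
RT1-Db1, chr20:4560232-4560280, minus strand: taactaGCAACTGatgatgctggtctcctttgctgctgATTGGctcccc
RT1-Ba, chr20:4576975-4577024, plus strand: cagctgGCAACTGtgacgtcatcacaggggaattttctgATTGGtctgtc
RT1-Bb, chr20:4604169-4604217, minus strand: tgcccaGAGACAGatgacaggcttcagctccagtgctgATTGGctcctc
RT1-DMa, chr20:4712389-4712438, minus strand: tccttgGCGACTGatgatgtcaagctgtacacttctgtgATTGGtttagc

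In these 5 genes the boxes were 25 or 26 bases apart. The sixth gene, Cd74, held both motifs but no X followed by Y within 10 to 35 bases. Searched on both strands of all 33469 promoters, GNNACNG alone stood in 88.1% and ATTGG alone in 37.5%. The ordered pair within 10 to 35 bases stood in 4.52%, and at a spacing of 25 or 26 bases, which was read from these genes themselves, in 0.356%. Their relatives RT1-Ha, RT1-Db2 and RT1-DOb also held the pair, 26, 24 and 23 bases apart, and RT1-DOa did not. A match of letters is a description and not a measured binding site. In the RefSeq order, RT1-Da, RT1-Db1, RT1-Ba and RT1-Bb follow one another on chromosome 20, with RT1-Db2 among them, and RT1-DMb and RT1-DMa come after. The class I pathway genes Tap2, Psmb8, Tap1 and Psmb9 lie between the 2 blocks, and Ciita and Cd74 lie on other chromosomes.

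Values below are the deposited signal intensities. Their scale and normalization are not given in the sources used here, and array medians lay between 33.4 and 33.9. All 8 genes were above the dimmest 33.3% of features. Groups were compared with limma, a linear model with shared variance, on the log2 of the values, with Benjamini-Hochberg adjusted p-values over the 29215 features and a threshold of 0.05. It is not stated that arrays of 1 group are from separate animals, so a p-value here reflects only how far these arrays differ, possibly for technical reasons. The methods name TRIzol and sense-strand cDNA, whereas the sample records name Sepasol and cRNA.

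No class II gene passed the test in any of the 3 comparisons. The level of these genes instead varied from array to array inside each group, and most of them did so together. RT1-DMa was the only one of the 8 with arrays of different groups apart, its 3 F+ arrays lying above all 3 sham arrays.

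Among the surface chains, RT1-Ba and RT1-Bb encode the alpha and beta chain of the rat B molecule, the counterpart of human HLA-DQ. RT1-Ba read 80, 66.5 and 71.1 on the sham arrays, 78.2, 77.7 and 72.5 in the F- group and 76.8, 69.5 and 73.1 in the F+ group. The groups overlapped, and the highest and the lowest value were both from sham hearts. Its log2 difference between the F+ and F- groups was -0.058 (95% confidence interval -0.22 to 0.11, adjusted p = 0.858 from limma). RT1-Bb read 84, 63.4 and 66.4 on the sham arrays, 79, 80.4 and 69.9 in the F- group and 87.2, 66.2 and 50.1 in the F+ group. The F+ group held both the highest and the lowest of the 9 values, 1.74-fold apart, the widest range of the 8 genes. The mean was 67.8 ± 18.6 (SD, n = 3) in the F+ group against 76.4 ± 5.70 (SD, n = 3) in the F- group, and the log2 difference of -0.21 (-0.66 to 0.25) did not pass (adjusted p = 0.814 from limma).

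RT1-Da and RT1-Db1 encode the alpha and beta chain of the D molecule, the counterpart of human HLA-DR. RT1-Da read 78.9, 66.3 and 67.5 on the sham arrays, 85, 72.9 and 69 in the F- group and 79.5, 67.8 and 80.5 in the F+ group. Each group held at least 1 array under 70 and 1 array above 78. The F+ and F- means were nearly the same, 75.9 ± 7.06 and 75.6 ± 8.34 (SD, n = 3 each), with a log2 difference of 0.0071 (-0.24 to 0.25, adjusted p = 0.992 from limma). RT1-Db1 read 55.5, 46.5 and 47.8 on the sham arrays, 54.9, 54.5 and 49.8 in the F- group and 51.4, 47.3 and 48.8 in the F+ group. The first sham array and the first 2 F- arrays stood above the other 6. The log2 difference between the F+ and F- groups was -0.11 (-0.28 to 0.060, adjusted p = 0.745 from limma). RT1-Db1 has a close relative, RT1-Db2, which was not matched to a feature here, and a share of its signal in the RT1-Db1 feature was not tested.

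Cd74, the invariant chain, varied least. It read 138.3, 131.7 and 132.4 on the sham arrays, 139.4, 141.5 and 136.5 in the F- group and 140.9, 133.6 and 134.8 in the F+ group, a range of 1.07-fold. The F- arrays were high and close together, but the first sham array and the first F+ array stood among them. The mean was 134.1 ± 3.63 in sham, 139.1 ± 2.51 in F- and 136.4 ± 3.91 in F+ hearts (SD, n = 3 each). The log2 difference was 0.053 (-0.022 to 0.13, adjusted p = 0.747 from limma) between the F- and sham groups and -0.029 (-0.10 to 0.047, adjusted p = 0.848 from limma) between the F+ and F- groups.

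**Figure D1:**
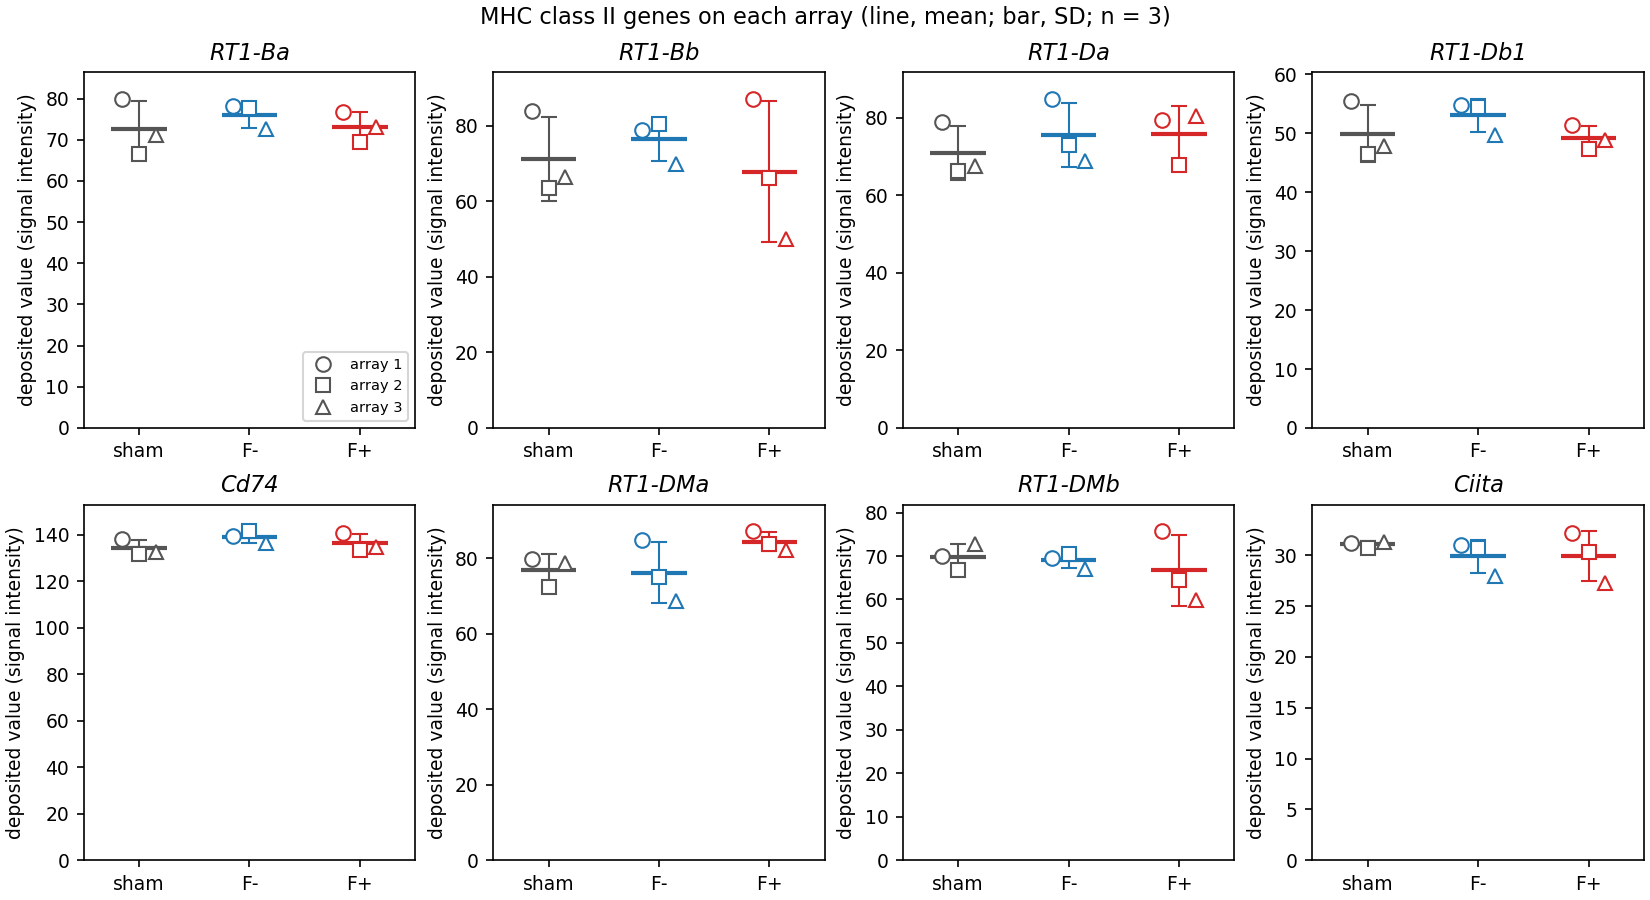
Deposited value (signal intensity, from 0) of each of the 8 class II genes on each array, with 1 panel per gene and the sham, F- and F+ groups on the horizontal axis. Symbols mark arrays 1, 2 and 3 of a group, horizontal lines the mean and bars the SD (n = 3). The groups overlap in every panel except for F+ against sham in RT1-DMa, and RT1-Bb shows the widest spread, from 50.1 to 87.2 within the F+ group.

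RT1-DMa and RT1-DMb encode the peptide exchanger DM, which stays in endosomes. RT1-DMa read 79.7, 72.2 and 78.8 on the sham arrays, 84.9, 74.9 and 68.7 in the F- group and 87.2, 83.7 and 82.2 in the F+ group. The lowest F+ value, 82.2, was above the highest sham value, 79.7, while the first F- array, 84.9, lay inside the F+ range. The mean was 84.4 ± 2.57 in the F+ group, 76.2 ± 8.17 in the F- group and 76.9 ± 4.10 in the sham group (SD, n = 3 each). The log2 difference was 0.15 (-0.025 to 0.33, adjusted p = 0.683 from limma) between the F+ and F- groups and 0.13 (-0.042 to 0.31, adjusted p = 0.713 from limma) between the F+ and sham groups. Without the first F- array, the log2 difference between the F+ and F- groups was 0.23 (adjusted p = 0.233 from limma). This was the highest of the values with single arrays left out, which reached down to 0.081. Its partner RT1-DMb read 69.9, 66.8 and 72.8 on the sham arrays, 69.5, 70.5 and 67.1 in the F- group and 75.8, 64.5 and 59.9 in the F+ group. Here the F+ group held both the highest and the lowest value, and its log2 difference from the F- group was -0.056 (-0.24 to 0.13, adjusted p = 0.885 from limma).

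Ciita, the transactivator, read 31.2, 30.7 and 31.3 on the sham arrays, 31, 30.7 and 28 in the F- group and 32.2, 30.3 and 27.3 in the F+ group. Its 3 sham values lay within 0.6 of each other, and the third array was the lowest of each banded group, at 28 and 27.3. Both banded groups had a mean of 29.9, against 31.1 ± 0.321 (SD, n = 3) in sham hearts. The log2 difference was -0.057 for either banded group against sham (adjusted p = 0.823 for F- and 0.842 for F+ from limma).

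Over the list, 0 of 8 genes passed the adjusted threshold between the F+ and F- groups, where 0.00342% of all features passed (1 of 29215). At an unadjusted p under 0.05, 0 of 8 passed against 7.41% of all features, and arrays of these groups did not overlap for 0 of 8 genes against 9.74% of all features. Between the F- and sham groups the counts were 0 of 8 by each rule, and the backgrounds were 0%, 6.03% and 9.79% of features for the adjusted, the unadjusted and the overlap rule. Between the F+ and sham groups, 0 of 8 passed adjusted (background 0%), 0 of 8 unadjusted (background 7.4%), and 1 of 8, RT1-DMa, had arrays that did not overlap (background 12.2%). With 3 arrays against 3, an exact two-sided permutation test of a single gene cannot go below p = 0.1.

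The median log2 difference of the 8 genes was -0.042 between the F+ and F- groups, with 2 genes higher and 6 lower, beside a median of -0.0023 over all features. It was 0.063 between the F- and sham groups (5 higher, 3 lower, all features -0.0025) and -0.0019 between the F+ and sham groups (4 higher, 4 lower, all features -0.0035). The 3 comparisons share arrays and are not independent of each other. The intervals differ widely between genes. For Cd74 the interval between the F+ and F- groups reached from -0.10 to 0.047, and for RT1-Bb from -0.66 to 0.25. These sizes hold only on the log2 scale of the deposited values. If the values were squares of log2 levels, the median of the 8 genes would be -0.13, that of Cd74 -0.12, that of RT1-Bb -0.55 and that of RT1-DMa 0.47 in log2 between the F+ and F- groups, and again no gene passed.

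**Figure D2:**
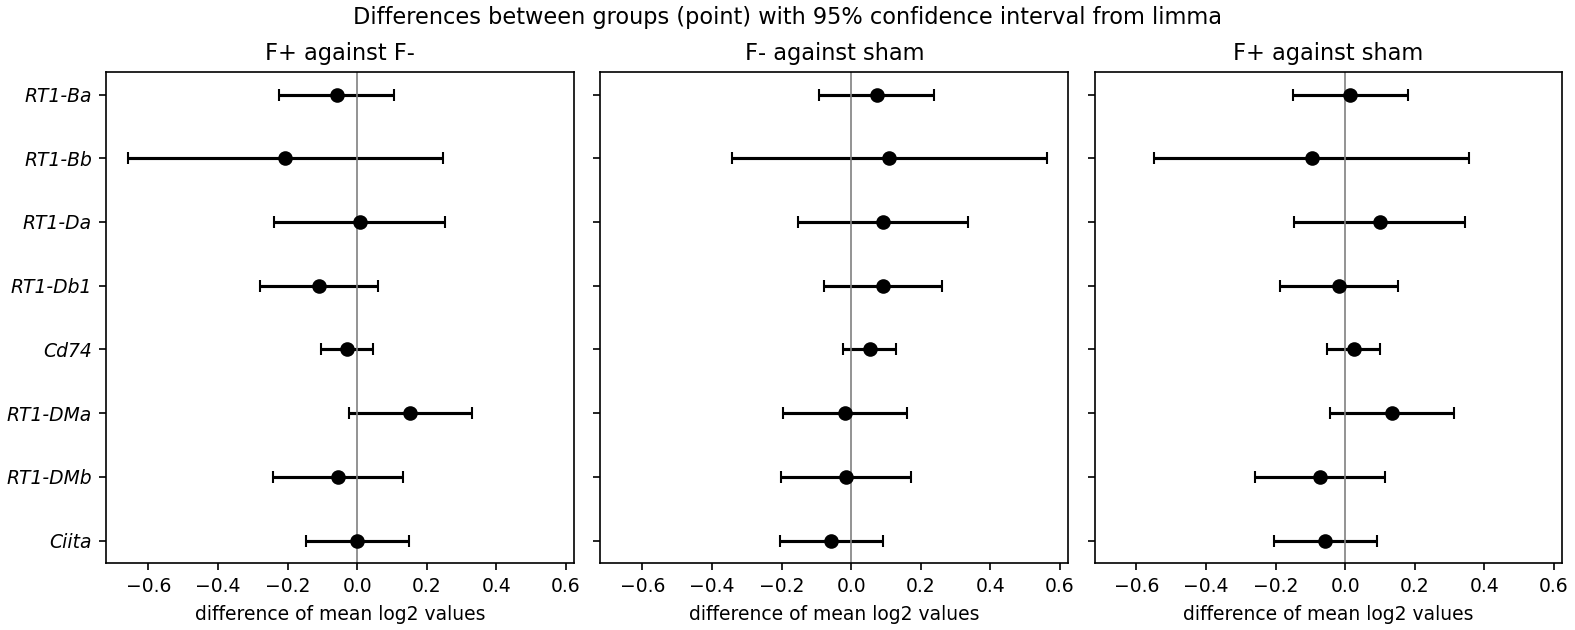
Difference of mean log2 values (horizontal axis) for each class II gene in the 3 comparisons, 1 panel each, with the 95% confidence interval from limma (n = 3 arrays per group). Every interval includes 0, the narrowest belong to Cd74 and the widest to RT1-Bb, and RT1-DMa lies farthest to the right in the panels of F+ against F- and F+ against sham.

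The spread inside the groups was wider than that of the median feature. The median log2 SD within groups was 0.1002 over the 8 genes, 0.0630 over all features and 0.0506 over the features outside the dimmest 33.3%. Differences between the groups made up a median of 13.7% of the variance of the 8 genes, against 27.4% over the 29195 features with any variance. The share was highest for RT1-DMa at 39.8% and Cd74 at 35.3%, and lowest for RT1-DMb at 10.7%.

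The arrays of a group differed in the same direction for many of the genes. The second sham array was the lowest of its group in 8 of 8 genes, and the third F- array was the lowest of its group in 8 of 8. The first F+ array was the highest of its group in 7 of 8 genes, the exception being RT1-Da. As a mean over the 8 genes in log2, relative to the mean of all 9 arrays, the sham arrays stood at 0.087, -0.098 and -0.034. The F- arrays stood at 0.094, 0.048 and -0.064, and the F+ arrays at 0.11, -0.055 and -0.093. Each group therefore held arrays above and below the overall mean. The group means of this level differed by -0.037 between F+ and F- hearts, less than the SD of 0.110 among the F+ arrays and 0.0810 among the F- arrays. The tissue was measured in bulk, so fewer cells with class II and less class II RNA per cell cannot be told apart.

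All 28 pairs of the 8 genes correlated above 0 over the 9 arrays (Pearson's r of log2 values, median 0.43), and 13 pairs exceeded 0.6. These correlations describe 9 arrays that share a platform and a normalization and are not known to be independent animals, and no p is given. RT1-Ba and RT1-Db1, chains of different molecules, followed each other most closely (r = 0.96, Spearman's rho 0.98). Cd74 correlated at 0.88 with RT1-Ba, 0.87 with RT1-Db1, 0.74 with RT1-Bb and 0.66 with RT1-Da. Ciita did not share this order. It correlated at 0.82 with RT1-DMb and 0.73 with RT1-Bb, but at 0.25 with RT1-Ba and 0.04 with RT1-Da. RT1-Bb and RT1-DMb correlated at 0.83.

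Genes whose products pair with each other were not the closest pairs. RT1-Ba and RT1-Bb correlated at 0.66, RT1-Da and RT1-Db1 at 0.70, and RT1-DMa and RT1-DMb at 0.13. The values of the third F+ array show the difference between the chains, since RT1-Bb, RT1-DMb and Ciita had the lowest of their 9 values there (50.1, 59.9 and 27.3) while RT1-Da, at 80.5, had the highest of its group. After removal of the group means the median r over the 28 pairs was 0.65, and that of RT1-DMa with RT1-DMb was 0.45.

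**Figure D3:**
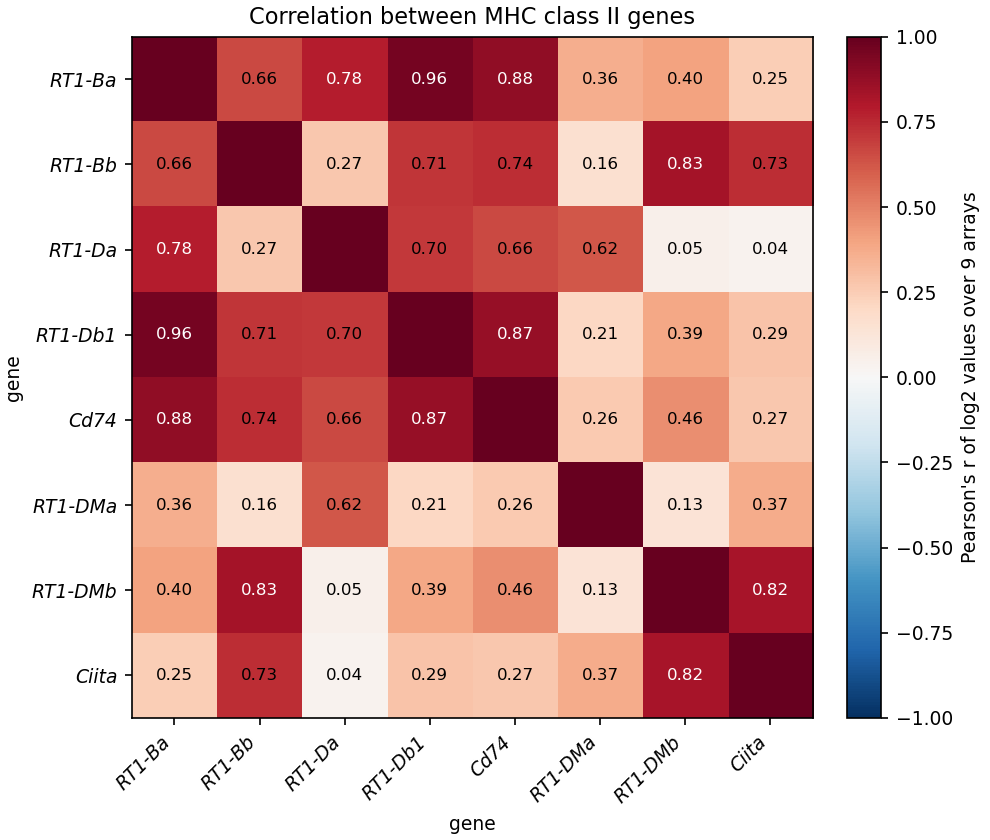
Pearson's r of log2 values over the 9 arrays for each pair of class II genes, with genes on both axes and colour from -1 (blue) to 1 (red). RT1-Ba, RT1-Db1 and Cd74 show r of 0.87 to 0.96 with each other, RT1-Bb, RT1-DMb and Ciita 0.73 to 0.83, and RT1-DMa exceeds 0.6 with RT1-Da alone.

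Ranked over 14491 other genes, those most like the mean of the 8 class II genes were Llgl2 (r = 0.93), Pomgnt2 (0.91), Tap1 (0.90), Gxylt1 (0.89), Map2k2 (0.88), Cst7 (0.88), Alkbh6 (0.88) and Prss59 (0.87). They were picked as the highest of this ranking, so no p is given. Their log2 ranges over the 9 arrays went from 0.077 for Map2k2 to 0.22 for Tap1, and to 0.43 for Prss59. Prss59 read only 7 to 9.4, below the array medians. The ranges of the 8 class II genes went from 0.10 for Cd74 to 0.80 for RT1-Bb. Tap1, which encodes a chain of the pump that delivers peptides to class I, read 52, 47 and 51.7 on the sham arrays, 52.3, 53.5 and 47.2 in the F- group and 54.4, 46.8 and 46.6 in the F+ group. As for the class II genes, the second sham and the third F- array were the lowest of their groups. Of the listed pathway genes, chosen here after their values were seen, Irf8, a transcription factor of dendritic cells and macrophages, ranked 17 (r = 0.83), Psmb9, an interferon-induced proteasome subunit, 35 (0.79), and Irf1, a transcription factor that acts on a promoter of Ciita, 37 (0.78).

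The other genes of the pathway were read from lists. Of the other class II genes, 3 of 4 were measured. RT1-DOa, the alpha chain of the DM inhibitor DO, read 33.2, 32.2 and 32.2 on the sham arrays, 31, 30.9 and 30.7 in the F- group and 33.8, 32.3 and 32.1 in the F+ group. The F- arrays lay below all others, with log2 differences of 0.084 for F+ against F- (adjusted p = 0.635 from limma) and -0.076 for F- against sham (adjusted p = 0.743 from limma), and neither passed adjusted, although both did unadjusted. Its partner RT1-DOb and RT1-Ha had adjusted p of 0.864 and 0.913 from limma for F+ against F-. Only RT1-Ha of these 3 genes, at 21.3 to 24.1, was among the dimmest features, by the cut used above. Of the 11 promoter factors that work with Ciita (RFX, NF-Y and CREB proteins and coactivators), 0 of 11 passed, adjusted or unadjusted, in any comparison. Of all features, 7.41% passed unadjusted for F+ against F-, 6.03% for F- against sham and 7.4% for F+ against sham. So few genes could hold 0 at these shares. Their median log2 difference between the F+ and F- groups was -0.0093.

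The interferon gamma axis, the inducer of Ciita in many cells, was measured for 8 of 9 genes. Between the F+ and F- groups 5 were higher and 3 lower, 0 passed adjusted, and Jak2, a kinase of the receptor, had an unadjusted p of 0.0475 at a log2 difference of 0.070 (adjusted p = 0.672 from limma). The 11 endosomal processing genes had 9 higher and 2 lower values in F+ than in F- hearts, with a median of 0.027, and 2 of 11 passed unadjusted, beside 7.41% of all features. Among them Ctss, cathepsin S, which trims the invariant chain, read 59.1, 58.1 and 51 on the sham arrays, 62.8, 54.2 and 56.5 in the F- group and 64.3, 69.7 and 68.9 in the F+ group. Every F+ array lay above every other array. The log2 difference was 0.23 for F+ against F- (adjusted p = 0.635 from limma) and 0.27 for F+ against sham (adjusted p = 0.604 from limma). Ctsb, cathepsin B, ranged from 144 to 146.4 in the F+ group and from 135.4 to 138.6 in the F- group (log2 difference 0.090, adjusted p = 0.601 from limma). Ctsc, cathepsin C, went the other way, with 108, 109.1 and 107.3 on the sham arrays, 99.8, 106.3 and 109.7 in the F- group and 99.4, 97.8 and 102.5 in the F+ group. All F+ arrays lay below all sham arrays (log2 difference -0.11, adjusted p = 0.623 from limma). Between the F+ and sham groups 3 of 11 processing genes were higher and 1 of 11 lower at an unadjusted p under 0.05, beside 7.4% of all features.

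Of the genes for class II turnover and T cell contact, 11 of 12 were measured, 7 higher and 4 lower in F+ than in F- hearts (median 0.035), and 1 of 11 passed unadjusted, near the 7.41% of all features. Marchf1, a ubiquitin ligase that removes class II from the surface, ranged from 24.8 to 27.4 in F+ and from 22.8 to 24.6 in F- hearts (log2 difference 0.14, adjusted p = 0.639 from limma). Lag3, an inhibitory receptor on T cells that binds class II, read 21, 21 and 21.6 on the sham arrays, 17.1, 19.3 and 18.8 in the F- group and 19.3, 17.6 and 19.2 in the F+ group. All 6 banded arrays lay below the sham arrays, at a log2 difference of -0.21 for F- against sham (adjusted p = 0.743 from limma). Of the 11 turnover genes, 4 were among the dimmest features by the cut used above, Lag3 and Marchf1 among them. Of the 4 genes for the Cd74 ligand and partners, all had higher means in F+ than in F- hearts, beside 48.2% of all features. Mif, the cytokine that binds Cd74 at the surface, had a log2 difference of 0.14 (adjusted p = 0.668 from limma). The differences of Cxcr2, Cd44 and Cxcr4 were 0.20, 0.018 and 0.0031. Only Cxcr2 of these 4 genes, at 14.4 to 19.4, was among the dimmest features. Over all lists and comparisons, no gene passed the adjusted threshold.

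Class I presentation, with 12 of 16 genes measured, had 3 higher and 9 lower genes in the F+ than in the F- group (median -0.017). Of the 12, 0 had an unadjusted p under 0.05, beside 7.41% of all features. The mean level of class I presentation followed the class II level across the arrays (r = 0.80, rho 0.77, and 0.80 within groups). Its genes were not alike, since Tap1, Psmb9, B2m and Tap2 had r of 0.90, 0.79, 0.74 and 0.72 while RT1-CE5, RT1-N3 and Psmb8 had r of -0.61, -0.30 and -0.27. The mean of the interferon gamma axis had r of 0.76 (rho 0.77, 0.85 within groups), with 4 of its 8 genes above 0, among them Irf1 (0.78), Ifng (0.75) and Irf2 (0.55), and Ifngr1 (-0.40), Jak1 (-0.18), Socs1 (-0.13) and Jak2 (-0.12) below. Of these 8 genes only Ifng, at 21 to 24.2, was among the dimmest features, by the cut used above. For the other class II genes r was 0.72 (rho 0.63, 0.79 within groups). The genes named here for their r were chosen after their values were seen. Without the first F+ and first F- array, the 2 farthest from the median of the class II level, r of the 3 lists was 0.79, 0.71 and 0.81. Psmb9 read 62.7, 53.7 and 54 on the sham arrays, 58, 69.8 and 56.3 in the F- group and 64.3, 52.4 and 49.1 in the F+ group, and Irf1 was likewise highest on the first sham, second F- and first F+ array of each group. In 14 lists compared, r over all arrays was lower for processing genes (0.10, 0.34 within groups, -0.34 without those 2 arrays) and promoter factors (0.16, 0.22 and 0.63). It was 0.44 for turnover genes (0.68 within groups, -0.25 without those 2 arrays) and 0.42 for Cd74 partners (0.66 and 0.050), so the order of the lists depends on the arrays included.

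Markers of cells that could carry class II were set beside these values. Dendritic cell markers (8 of 9 measured) followed the class II level over the arrays (r = 0.72, rho 0.80, 0.92 within groups, 0.56 without those 2 arrays), and 0 of 8 passed adjusted between F+ and F- hearts, with 6 higher and 2 lower. The 1 that passed unadjusted, Xcr1, a receptor of cross-presenting dendritic cells, was lower in F+ hearts (log2 difference -0.093, adjusted p = 0.671 from limma). Their summed level ranged from 285.2 to 296.8 in sham, 272.6 to 293.2 in F- and 285.7 to 302.8 in F+ hearts. B cell markers (5 of 8 measured) and T cell markers (9 of 9) had r of 0.12 and 0.081, and summed levels of 121.4 to 126.7 and 293.2 to 310.1 in F+ against 113.8 to 121.4 and 280.2 to 292.2 in F- hearts. In sham hearts the sums were 118.2 to 123.1 and 289.3 to 294.9, overlapping the F+ sums, and the median log2 differences between the F+ and sham groups were 0.021 and 0.019. Between the F+ and F- groups 5 of 5 B cell markers and 7 of 9 T cell markers had higher means in F+ hearts (medians 0.060 and 0.087). Of the T cell markers, Cd3d and Cd4 had unadjusted p of 0.0145 and 0.0215 for F+ against F- at log2 differences of 0.14 and 0.15 (adjusted p = 0.625 and 0.639 from limma). Cd4 read 83.6, 83.3 and 81.4 in F+ and 80.5, 70.8 and 72.8 in F- hearts. Cd3d read 21.1, 20.8 and 22.2 in F+ and 20.6, 19.2 and 18.4 in F- hearts. Cd4 was the brightest of the 9 and weighs most in their sum, and which cells carry its signal was not tested.

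Macrophage markers had their highest summed levels in F+ hearts. All 16 of 16 were higher in the F+ than in the F- group, 8 of them at an unadjusted p under 0.05 (beside 7.41% of all features) and 0 adjusted, with a median log2 difference of 0.21, a pattern known in part when the list was chosen. Their summed level was 1047.1 to 1098 in F+, 858.7 to 1039.4 in F- and 867.9 to 926.5 in sham hearts, so the F+ arrays lay above the rest. C1qb, a complement gene of macrophages, read 70.7, 72.6 and 71.3 in F+ hearts and 65.8, 54.9 and 56.7 in F- hearts (adjusted p = 0.567 from limma). Over the 9 arrays, r between the class II and the macrophage level was 0.20 (rho 0.38, 0.45 within groups), and -0.23 without the first F+ and first F- array. On the second F+ array the macrophage markers stood at 0.19 above their mean in log2 while the class II genes stood at -0.055. RT1-DMa, Ctss, Ctsb and Marchf1 had all F+ arrays above every sham array, as had the summed level of these markers. So had Ctsd, Ifi30, Ifngr2, Jak1, Jak2 and Cd44 of the pathway lists, while Ctsc, Lag3, Socs1, Rfxap, Rfxank and Ep300 had them below. Arrays of these 2 groups thus did not overlap for 5 of 11 processing, 4 of 8 interferon gamma and 2 of 11 turnover genes. The same held for 1 of 4 Cd74 partners and 3 of 11 promoter factors, beside 12.2% of all features. The part of the macrophage markers in the values of these genes was not tested.

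Fibroblast markers (8 of 8) ran opposite to the class II level (r = -0.77, rho -0.77, -0.77 within groups, -0.73 without those 2 arrays), while 0 of 8 passed between F+ and F- hearts, with a median of 0.0071. The first sham and first F+ arrays, high in class II, were the lowest in these markers, at -0.052 and -0.068 in log2 relative to the mean of all arrays. Endothelial (7 of 8) and cardiomyocyte markers (10 of 10) had r of 0.20 (0.62 without those 2 arrays) and 0.32 (0.29), with 5 of 7 and 1 of 10 higher in F+ than in F- hearts. The lowest value of any cardiomyocyte marker, of the tissue labelled, was 112.3, and their summed level was 1552 to 1572.1 in sham, 1573.2 to 1588.7 in F- and 1531.9 to 1566.3 in F+ hearts. Array minima over all features lay between 1 and 1.5, so no marker could read 0. Among the dimmest features, by the cut used above, were 2 of 5 B cell, 3 of 9 T cell and 1 of 8 dendritic cell markers. The lowest values in these lists were 10.3, 15.8 and 21.9. Of the macrophage, fibroblast, endothelial and cardiomyocyte markers, 0 were among the dimmest features. The part of these cell types in the class II values was not tested.

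**Figure D4:**
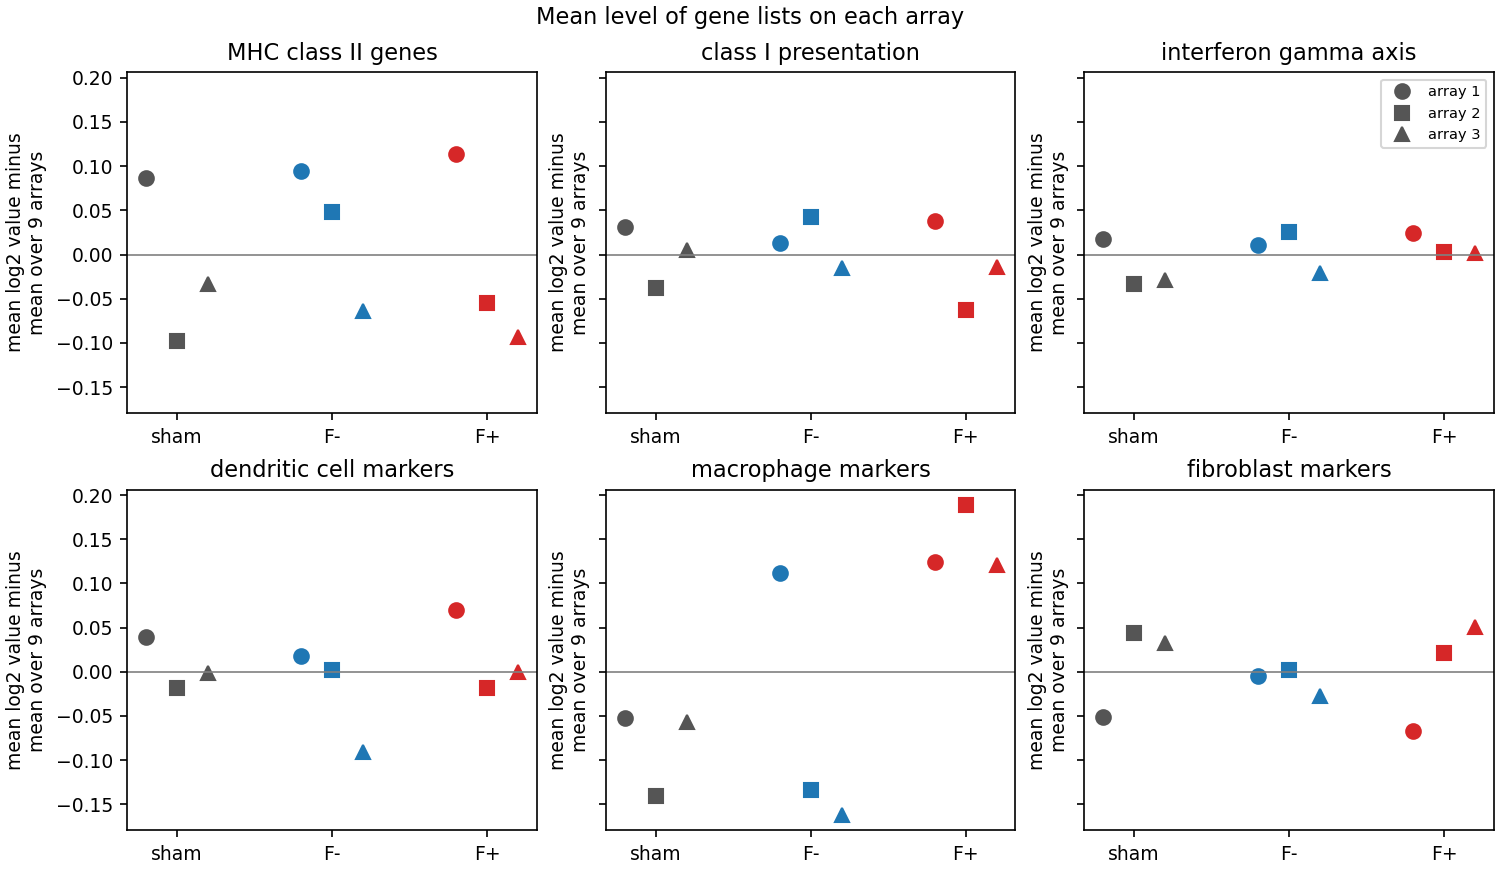
Mean log2 value of each gene list minus its mean over the 9 arrays (vertical axis), for the class II genes and 5 lists, with sham, F- and F+ groups on the horizontal axis and symbols for arrays 1, 2 and 3. The class II genes, class I, interferon gamma and dendritic lists have their first sham and first F+ arrays above the line, fibroblast markers have them below it, and macrophage markers have all 3 F+ arrays and the first F- array above it.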

How the data were processed

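Total RNA of rat right ventricles was hybridised to 9 arrays, 3 in each group. The authors deposited 1 signal intensity per feature and array, and neither its normalization nor its scale is given in the sources used here. All 9 arrays and 29215 features entered. Genes were named from features with 1 symbol in the platform annotation, taking the feature with the highest mean. Log2 values of the 3 groups were compared in R 4.3.3 by limma (version 3.58.1, lmFit then eBayes, 1 mean per group), with Benjamini-Hochberg adjustment over the whole table. No column was left out. The member genes and lists were chosen with earlier results of these data known, so no list was tested. Besides the 8 genes, the rule named up to 3 genes of each list with the smallest p in F+ against F- and in F- against sham, and the 8 genes most like the mean. Alternatives were square roots (the values could be squares of log2 levels), quantile normalization, a filter on dim features, 1 symbol only, a replicate block, the 2 groups compared alone, and single arrays left out. Leaving out array 1 of each group was chosen after seeing the data. The fit was tested on simulated data. Of measures of precision, only the number of arrays could be given for each value, and the sizes of all differences hold on the log2 scale of the deposited values alone. Motifs and plots were made with Python 3.11.15, pandas 2.3.3 and matplotlib 3.10.9. The RT-PCR and cell culture data were not analysed here.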

Additional observations from a re-analysis of the deposited data

How the results depend on the processing

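Of 384 values of the 8 class II genes recomputed under the alternatives, 361 kept their direction, 23 changed sign and 0 passed the threshold, with a smallest adjusted p of 0.233 (limma, RT1-DMa between the F+ and F- groups without the first F- array). Many of the 361 could not have changed. Both filters, the replicate block and the fit of 2 groups alone leave each log2 difference as it is. So does leaving out an array of the group outside a comparison. Under square roots, the difference of Ciita between the F+ and F- groups was 0.00132 in place of -0.00022, and the median of the 8 genes between the F- and sham groups was 0.21 in place of 0.063, the median between the F+ and F- groups was -0.13 in place of -0.042, and that of the macrophage markers was 0.57 in place of 0.21. With array 1 of each group left out, RT1-Db1 was at 0.027 between the F+ and sham groups in place of -0.019. Features called between the F+ and F- groups numbered 3 without the dimmest features and 3 with 1 symbol only, and 0 with only the 2 groups compared or with array 1 of each group left out, in place of 1. Between the F+ and sham groups 1 was called with only the 2 groups compared, in place of 0. With the replicate block 0 were called and the median of the 8 genes stayed at -0.042. After removal of the group means, same-numbered arrays correlated over all features between -0.21 and 0.053. Other arrays of different groups correlated between -0.12 and 0.26 in these deviations. By this measure 1 of 9 arrays correlated best with its own number, so the numbers were not taken to pair arrays.

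With single arrays left out, the median of the 8 genes ranged from -0.074 to -0.013 between the F+ and F- groups, from 0.022 to 0.11 between the F- and sham groups and from -0.056 to 0.053 between the F+ and sham groups, and RT1-Bb between the F+ and F- groups from -0.41 to -0.0059. The count of features called between the F+ and F- groups ranged from 0 to 3, with 3 without the first F- array and 0 without any other. The values between the F+ and F- groups ranged from -0.055 to 0.065 for Ciita, from -0.056 to 0.094 for RT1-Da and from -0.15 to 0.019 for RT1-DMb. Between the F- and sham groups they ranged from -0.099 to 0.054 for RT1-DMa and from -0.048 to 0.014 for RT1-DMb. Between the F+ and sham groups they ranged from -0.11 to 0.0079 for Ciita, from -0.046 to 0.088 for RT1-Ba, from -0.30 to 0.10 for RT1-Bb, from -0.17 to 0.0027 for RT1-DMb and from -0.068 to 0.060 for RT1-Db1. Averaging the features of a gene could give no other value, since each gene had 1 feature.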
